A study of Mus musculus with 18 samples.

Results

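The TRIM family was followed in the RNA of bone marrow-derived macrophages (BMDMs). Its members were all rows of the deposited gene table that were protein coding and whose name began with Trim and a digit, which gave 54 of 20615 genes, 15008 of them protein coding. Of the 54, 45 passed the filter on low counts and were tested among 15789 genes. BMDMs were grown for 7 days in L929 supernatant, a source of M-CSF, from female mice of 7 to 12 weeks. The mice were C57BL/6 (B6) or C57BL/6.NOD-Aec1Aec2 (SjSS), a model of Sjögren's syndrome on the B6 background that carries the NOD intervals Idd3 (Aec1) and Idd5 (Aec2). BMDMs of each strain were left untreated (control), given CpG at 1 µM for 6 h, or given apoptotic cells (AC), thymocytes killed with dexamethasone, at 5 per macrophage for 2 h. AC cultures were then washed and kept for 3 h by the sample labels, while the study's methods give a longer time. Each of the 6 groups held 3 samples, from 3 mice per strain by the study's account. The comparisons addressed how each strain answered ACs, how it answered CpG as another inflammatory stimulus, and whether the strains differed. Which strain gave the thymocytes, and whether samples with the same number came from 1 mouse, was not stated in the sources used here, so p-values measure the spread between these samples.

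Most TRIM proteins carry a RING domain, which transfers ubiquitin, together with 1 or more B-box domains and a coiled coil. Many end in a PRY-SPRY domain that binds their target. Several are induced by interferons and act on the receptors, adaptors and kinases of nucleic acid sensing and NF-kB signaling. TRIM21, also known as Ro52, is an autoantigen of Sjögren's syndrome and a cytosolic receptor for antibody Fc, and TRIM25 attaches ubiquitin to the RNA sensor RIG-I. On mouse chromosome 7 the Trim5, Trim12, Trim30 and Trim34 genes form a tandem cluster of relatives of the retroviral restriction factor TRIM5.

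Values are CPM, counts relative to the library total after TMM scaling in edgeR. A log2 fold change is given ± its standard error, with the Benjamini-Hochberg adjusted p of edgeR's quasi-likelihood test across all 15789 genes. Called genes had both an adjusted p below 0.05 and a change of more than 1.3 on the log2 scale, the fold threshold. Genes are said to have risen or fallen where the adjusted p was below 0.05, whatever the fold. CPM does not correct for gene length, so genes are compared with each other only per kilobase of exon. Library totals ran from 30688288 to 57139640 counts. The macrophage markers Lyz2, Csf1r, Adgre1, Cd68, Itgam, Mertk, Fcgr1 and Cd14 summed to between 15105 and 23748 CPM in every sample. Of 12 thymocyte and T cell markers, 2 (Cd4 and Lck) passed the filter. The summed level of the 12 was 4.41 to 4.86 CPM in AC treated and 7.93 to 9.84 CPM in control B6 BMDMs. For SjSS samples it was 13.2 to 18.04 CPM with ACs and 10.1 to 11.5 CPM in controls, and Cd4 made up nearly all of it. The defining markers Cd3d, Cd3e, Cd3g and Trac had 4, 4, 14 and 7 counts over the 3 AC treated SjSS samples, and Themis had 0. Lck was called higher with ACs in SjSS (2.11, adjusted p = 8.03e-04, 21 to 86 counts over 3 samples), and Cd4 was called in the strain difference with ACs (1.97) and the interaction (1.71). From control to AC treated B6 BMDMs, Cd8a went from 1 to 26 counts, Dntt from 0 to 18, Cd8b1 from 2 to 14 and Themis from 1 to 10. Rag1 had 24 counts in AC treated B6, 3 in AC treated SjSS and 0 in other BMDMs. Fibroblast markers (Col1a1, Col3a1, Pdgfra) summed to 71.3 to 111.6 CPM in SjSS and 19.5 to 65.1 CPM in B6 samples. The part of either list in the strain differences below was not tested. B cell markers (3 genes) stayed under 0.82 CPM and dendritic cell markers (3 genes) under 0.75 CPM in sum, and of 4 neutrophil markers only S100a8 was in the table. In RNA from whole cultures, fewer cells of a type and less RNA per cell cannot be told apart.

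In control BMDMs the TRIM genes together took little of the RNA. Their share of all counts was 0.1591%, 0.1594% and 0.1638% in the B6 samples and 0.1678%, 0.1711% and 0.1712% in the SjSS samples, in rising order. With CpG it was 0.1748% to 0.1927% in B6 and 0.168% to 0.1943% in SjSS. With ACs it was 0.1788%, 0.1792% and 0.1805% in B6 but 0.2815%, 0.2983% and 0.3039% in SjSS, so that the AC treated SjSS samples lay above the other 15. Per kilobase of exon, averaged over the 18 samples, Trim25 (60.5 CPM per kb), Trim30a (58.0) and Trim8 (33.1) were highest. The order differed between groups. In control B6 BMDMs Trim8 (38.2 CPM per kb), Trim25 (37.1), Trim35 (26.5), Trim28 (24.9) and Trim30a (23.6) led, in CpG treated B6 Trim30a (67.0), Trim8 (37.4) and Trim25 (36.6), and in AC treated SjSS Trim25 (161.8), Trim30a (140.8) and Trim30d (76.6). Trim21, Trim25, Trim30a and Trim30d made up 57.2% of the summed TRIM CPM in AC treated SjSS BMDMs and 24.5% to 33.8% in the other groups. All were called higher with ACs in SjSS, so a larger share there follows from picking them. The share does not correct for gene length, and per kilobase Trim30c (73.4) stood above Trim21 (59.8) in AC treated SjSS.

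**Figure D1:**
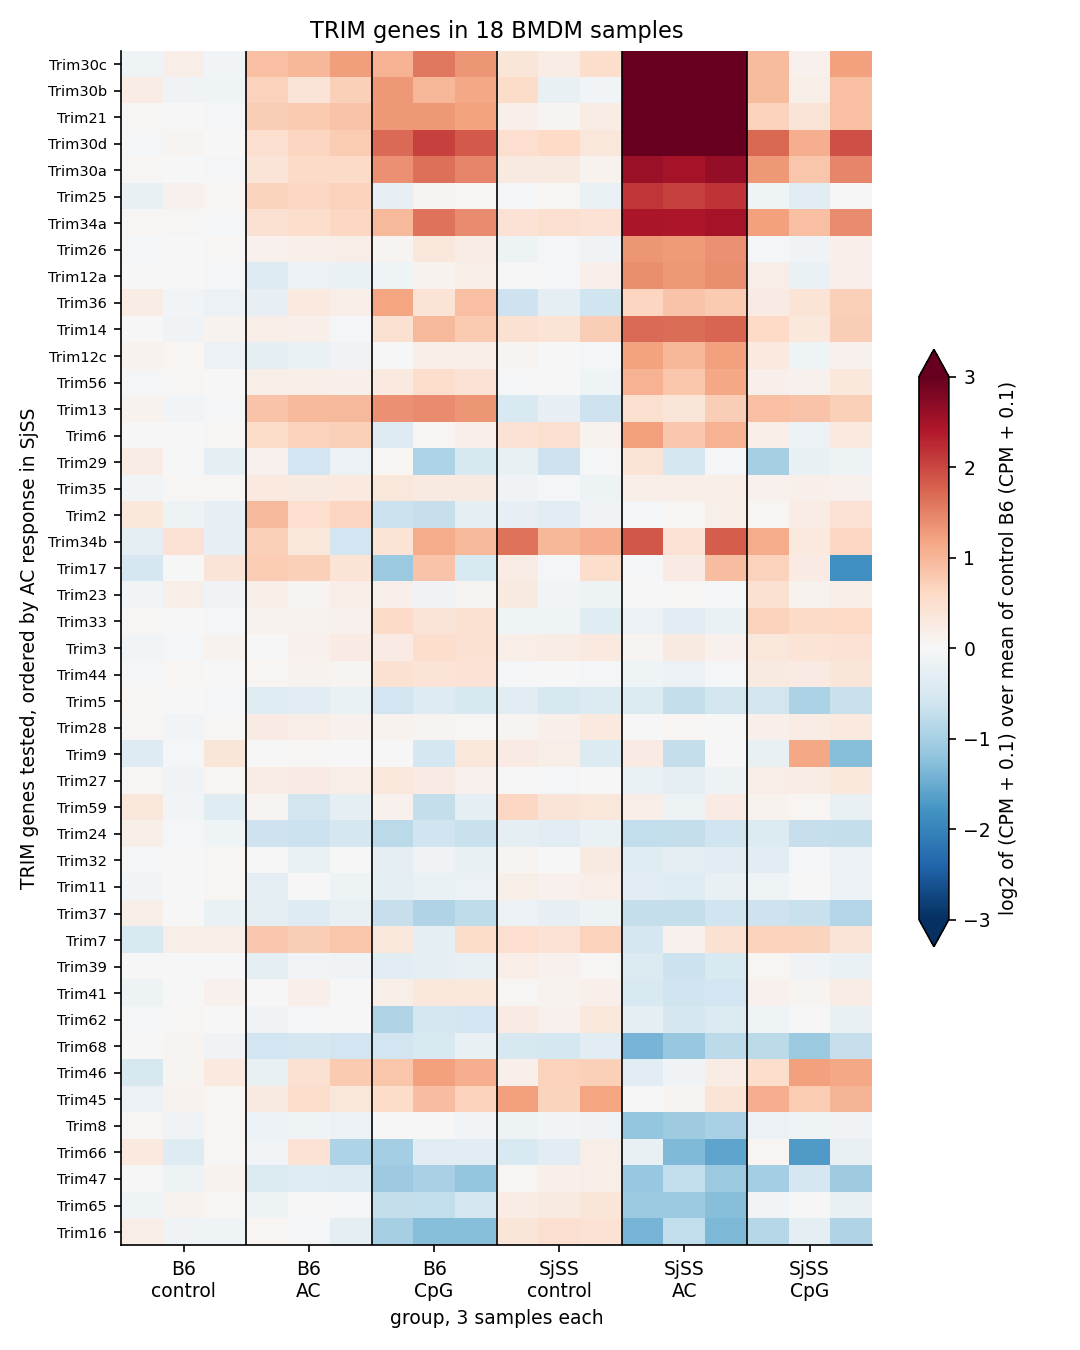
Expression of the 45 TRIM genes tested (rows, ordered by AC response in SjSS) in 18 BMDM samples (columns, 3 per group). Color is the log2 ratio of CPM + 0.1 to the mean of control B6, cut off at 3 in either direction. The 3 AC treated SjSS samples lie above the other 15 from Trim30c down to Trim12a. For Trim36 they overlap with CpG treated samples, and below it they lie above the other 15 for Trim14, Trim12c, Trim56 and Trim6.

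With ACs, 9 TRIM genes were called higher and 2 lower in SjSS, against 0 and 0 in B6. Over all genes tested, 7.09% were called higher and 5.83% lower in SjSS, and 2.43% and 2.04% in B6. The median log2 fold change of the 45 genes was -0.07 in SjSS and 0.12 in B6, beside -0.02 and 0.0 over all genes tested. Without the fold threshold, 16 TRIM genes rose and 15 fell in SjSS, where 28.6% and 29.4% of all genes did so, and 14 rose and 7 fell in B6, where 20% and 18.3% did. For the 0 calls in B6, edgeR gave 17 higher and 7 lower at an unadjusted p under 0.05, and DESeq2 called 0 in each direction. The share of all genes at an unadjusted p is not given, here or for the comparisons below. Counts at that threshold therefore do not set the TRIM genes apart from other genes. Scaling by library totals alone put the median of all genes at -0.43 for the AC response in SjSS, against -0.02 with TMM. Under it 7 TRIM genes were called higher and 6 lower, Trim12a and Trim26 were no longer called, and Trim35, which rose with TMM (0.29), fell (-0.12, adjusted p = 0.0168).

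The largest group of responders lay in the restriction-factor cluster and its relatives, 12 genes of which all were tested. This list was chosen with earlier results of these data known and includes Trim21 and Trim68, which lie outside the cluster. In AC treated SjSS BMDMs 7 of the 12 genes were called higher, 9 rose, 1 fell and 2 did not pass, with a median log2 fold change of 1.66. Of all genes, 7.09% were called higher there, 28.6% rose and 29.4% fell. In B6 BMDMs 7 rose and 3 fell with ACs, against 20% and 18.3% of all genes. None was past the fold threshold, and the median was 0.56. Trim30c (chr7:104382065-104400837, minus strand, mm10) was at 3.12, 3.94 and 3.21 CPM in control and 6.47, 6.89 and 8.27 CPM in AC treated B6 BMDMs. In SjSS BMDMs it went from 4.44, 4.02 and 4.99 to 133, 117 and 128 CPM. The AC treated samples lay above their controls in both strains, and those of SjSS lay above all other samples. The log2 fold change was 4.80 ± 0.19, adjusted p = 9.57e-14, in SjSS and 1.08 ± 0.20, adjusted p = 2.36e-04, in B6, and the strain by AC interaction was 3.72 ± 0.27, adjusted p = 3.74e-09.

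Trim30b (chr7:104355382-104369884, minus strand) was low, at 1.07, 0.834 and 0.817 CPM in control and 1.53, 1.21 and 1.56 CPM in AC treated B6 BMDMs. In SjSS it was at 1.38, 0.769 and 0.852 CPM in controls and 12.2, 8.64 and 12.4 CPM with ACs. It rose in both strains, 3.44 ± 0.23, adjusted p = 2.13e-10, in SjSS and 0.65 ± 0.25, adjusted p = 0.0458, in B6. The interaction was 2.79 ± 0.34, adjusted p = 2.59e-06. Trim30d (chr7:104470014-104507849, minus strand) was at 30.4, 33.1 and 31.1 CPM in control B6 and 44.2, 49.1 and 53.5 CPM in AC treated B6 BMDMs. The SjSS values were 44.9, 47.5 and 40.0 CPM in controls and 298, 267 and 299 CPM with ACs. Controls of SjSS were already above those of B6 (0.48 ± 0.15, adjusted p = 0.0263). The AC response was 2.71 ± 0.15, adjusted p = 1.18e-11, in SjSS and 0.63 ± 0.15, adjusted p = 0.00189, in B6, with an interaction of 2.07 ± 0.21, adjusted p = 2.07e-07.

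Trim30a (chr7:104409025-104465193, minus strand) encodes TRIM30α, which limits TLR-driven NF-kB signaling through degradation of TAB2 and TAB3. It was at 99.7, 96.9 and 94.0 CPM in control and 127, 145 and 145 CPM in AC treated B6 BMDMs. In SjSS, control samples were at 116, 117 and 104 CPM and AC treated samples at 583, 549 and 605 CPM. The lowest AC treated SjSS sample lay above every sample of the other groups. The response was 2.37 ± 0.12, adjusted p = 2.00e-12, in SjSS and 0.52 ± 0.11, adjusted p = 0.00112, in B6, and the interaction 1.85 ± 0.16, adjusted p = 3.23e-08.

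Trim34a (chr7:104244457-104262234, plus strand) was at 17.6, 17.8 and 16.5 CPM in control and 23.7, 24.96 and 26.6 CPM in AC treated B6 BMDMs. The SjSS samples were at 23.6, 24.0 and 23.3 CPM without and 94.5, 93.9 and 97.8 CPM with ACs. It rose by 2.01 ± 0.13, adjusted p = 7.24e-11, in SjSS and by 0.54 ± 0.13, adjusted p = 0.00242, in B6, with an interaction of 1.48 ± 0.18, adjusted p = 2.35e-06. Its near copy Trim34b (chr7:104329471-104336909, plus strand) had between 1 and 25 counts per sample. Trim34b was at 0.0480, 0.146 and 0.0533 CPM in control and 0.199, 0.132 and 0.0223 CPM in AC treated B6 BMDMs, and at 0.461, 0.266 and 0.290 CPM and 0.568, 0.147 and 0.538 CPM in SjSS. AC and control samples overlapped in both strains (0.27 ± 0.55, adjusted p = 0.703, in SjSS and 0.58 ± 0.73, adjusted p = 0.574, in B6).

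Trim12a (chr7:104299894-104315466, minus strand) and Trim12c (chr7:104338754-104353362, minus strand) differed from the Trim30 genes in that they did not rise in B6. Trim12a was at 18.6, 18.5 and 18.01 CPM in control B6 and lower, at 13.9, 16.4 and 15.9 CPM, with ACs (-0.25 ± 0.10, adjusted p = 0.0468). In SjSS it went from 18.5, 17.9 and 20.4 to 48.4, 45.1 and 48.3 CPM (1.32 ± 0.10, adjusted p = 6.65e-10). Without control SjSS 1 or 2 the rise in SjSS was 1.299 or 1.279, under the fold threshold. The interaction was 1.57 ± 0.14, adjusted p = 3.47e-08. Trim12c was at 46.5, 44.7 and 38.6 CPM in control and 35.8, 37.9 and 39.9 CPM in AC treated B6 BMDMs, which overlapped (-0.19, not past the test). The SjSS samples went from 45.6, 43.1 and 42.0 to 100.5, 86.3 and 102 CPM (1.14 ± 0.10, adjusted p = 4.77e-09), short of the fold threshold. The interaction of Trim12c, 1.33 ± 0.13, adjusted p = 2.55e-07, was past it, but not without control B6 1 (1.28), AC treated B6 1 (1.295) or AC treated SjSS 3 (1.29).

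Trim21 lies outside the cluster on the same chromosome (chr7:102557921-102565486, minus strand). It was at 23.7, 23.4 and 22.5 CPM in control and 39.1, 40.2 and 42.0 CPM in AC treated B6 BMDMs. SjSS controls were at 26.0, 24.7 and 26.9 CPM, and AC treated SjSS samples at 210.2, 225 and 232 CPM. Every AC treated sample was above its controls, and those of SjSS were above all other samples. Trim21 rose by 3.10 ± 0.09, adjusted p = 1.65e-15, in SjSS, a fold of 8.59, and by 0.80 ± 0.09, adjusted p = 6.91e-07, in B6, a fold of 1.74. The interaction was 2.30 ± 0.12, adjusted p = 8.91e-11.

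Not every member of the cluster took part. Trim5 (chr7:104263386-104288094, minus strand) was at 9.97 ± 0.551 CPM in control and 9.02 ± 1.02 CPM in AC treated SjSS BMDMs (mean ± SD, n = 3). Its groups overlapped there (-0.15 ± 0.10, adjusted p = 0.231), and in B6 it fell (-0.29 ± 0.10, adjusted p = 0.0267). Trim6 rose in both strains, by 0.71 ± 0.16, adjusted p = 7.87e-04, in SjSS and 0.67 ± 0.16, adjusted p = 0.00227, in B6, with an interaction of 0.03 ± 0.22, adjusted p = 0.936. Trim68, a neighbor of Trim21 (chr7:102677582-102687327, minus strand), fell in both strains (-0.66 ± 0.16, adjusted p = 0.00173, in SjSS and -0.57 ± 0.15, adjusted p = 0.0057, in B6).

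**Figure D2:**
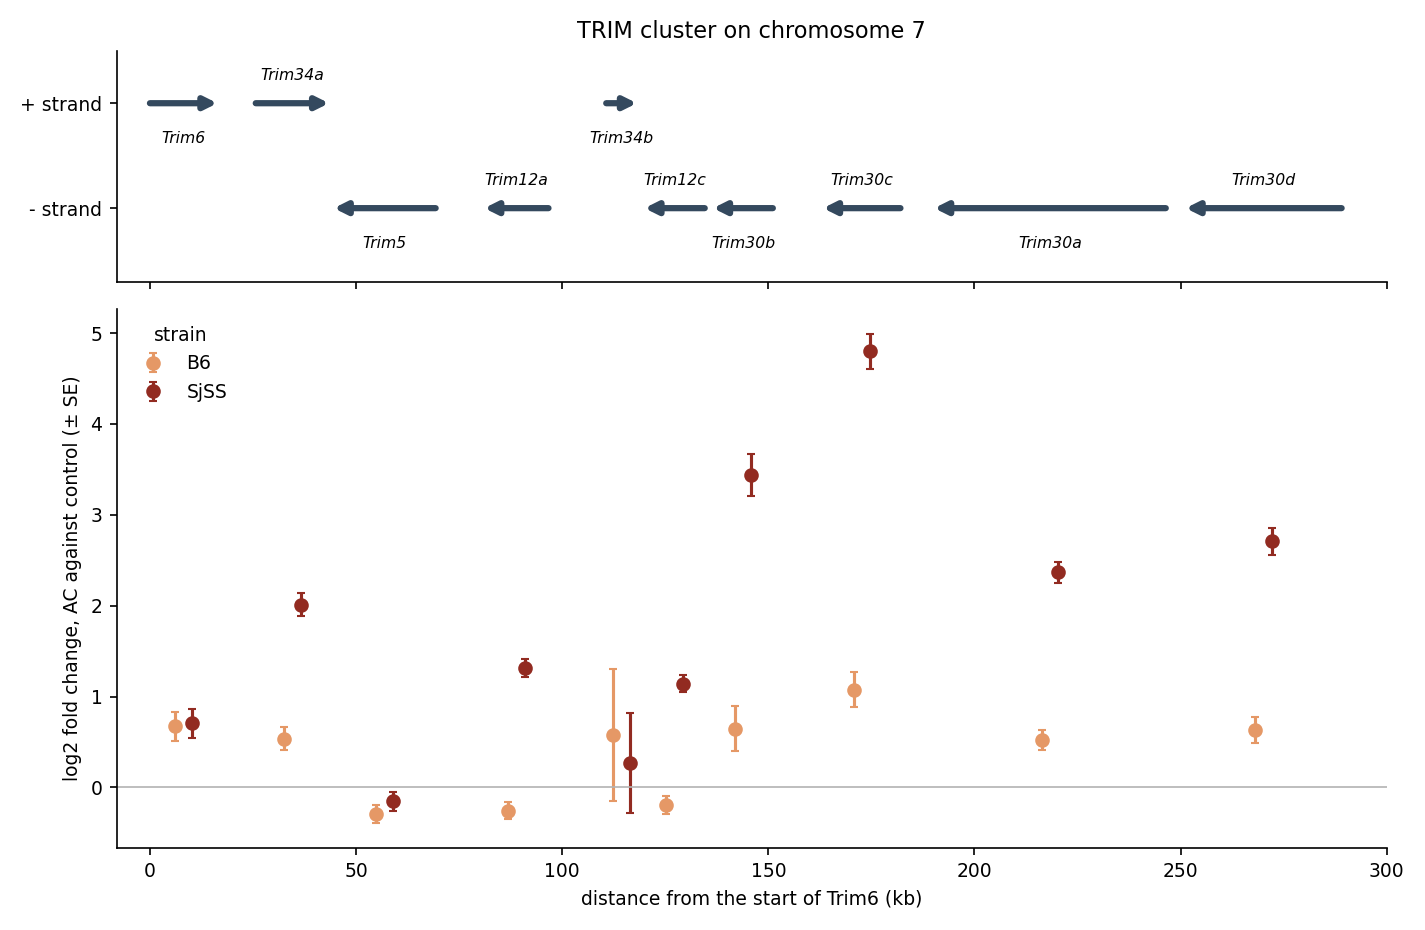
Map of the chromosome 7 cluster with the strand of each gene, and below it the log2 fold change with ACs against control (± SE, 3 samples per group) in B6 and SjSS beside each gene's midpoint, with distance in kb from the start of Trim6. Trim30b and Trim30c reach 3.44 and 4.80 in SjSS and 0.65 and 1.08 in B6, while Trim5 is at -0.15 and -0.29.

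These genes are close copies, which can share reads. Of overlapping stretches of fixed length, about that of a read, in annotated transcripts, 38.6% of those of Trim34a occurred in another gene, as did 555 of 1848 of Trim34b, 11.4% of Trim5, 7.8% of Trim12c, 3.2% of Trim12a, 4.4% of Trim30a and 4.5% of Trim30d. For Trim30b, Trim30c and Trim21 the share was 0.0%. With the counts of copies added up, the 4 Trim30 genes rose by 2.63 ± 0.13 in AC treated SjSS BMDMs (adjusted p = 1.58e-12) and the Trim34 pair by 2.00 ± 0.13 (adjusted p = 8.07e-11). The sum of Trim12a, Trim12c and Trim5 rose by 1.07 ± 0.09 (adjusted p = 4.08e-09), under the fold threshold, and its strain difference with ACs (1.2502) and interaction (1.297) were under it too, although Trim12a and Trim12c were each called there.

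Promoter sequence was compared because the cluster's members moved unequally. Of the 54 TRIM genes, 40 had a RefSeq window (GRCm38.p6) from 250 bases before to 50 bases after a start. The interferon-stimulated response element (ISRE) was searched as GAAANNGAAA on both strands, where N is any base. It was found in 9 TRIM genes (22.5%), namely Trim2, Trim5, Trim12a, Trim12c, Trim21, Trim26, Trim30a, Trim30d and Trim34a, and in 3.99% of 27025 genes with windows of the same length. Of the 9 genes called higher in AC treated SjSS BMDMs, 6 held it, and Trim25, Trim30b and Trim30c had no match in this window. The only Trim30b window, chr7:104358597-104358896, lay inside the gene (chr7:104355382-104369884, minus strand). The sequence at the outermost start of Trim30b was thus not searched. A gamma-activated site, TTCNNNGAA, was found in 5 TRIM genes, against 9.55% of all genes, and an NF-kB pair, GGGNNNNNCC, in 25, against 53.5%. The stretches below run 5′ to 3′ on the gene's strand with coordinates in GRCm38.p6, from 100 bases before to 30 after the start, except for Trim26, whose stretch lies farther upstream, and for Trim30a the outermost start is used. They are shown to set responders beside Trim5, and capitals mark ISRE matches, which overlap in Trim21 and Trim26 and read as the reverse complement where the match is on the other strand.
Trim21 chr7:102565453-102565582, minus strand: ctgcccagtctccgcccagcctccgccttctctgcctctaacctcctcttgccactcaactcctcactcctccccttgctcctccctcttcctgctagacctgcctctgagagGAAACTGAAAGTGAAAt
Trim26 chr17:36836966-36837095, plus strand: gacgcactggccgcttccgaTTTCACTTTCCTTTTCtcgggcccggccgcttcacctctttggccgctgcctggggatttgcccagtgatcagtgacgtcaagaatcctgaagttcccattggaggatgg
Trim34a chr7:104244357-104244486, plus strand: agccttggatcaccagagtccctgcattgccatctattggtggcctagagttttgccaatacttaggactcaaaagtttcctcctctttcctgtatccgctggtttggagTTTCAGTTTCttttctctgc
Trim30a chr7:104465164-104465293, minus strand: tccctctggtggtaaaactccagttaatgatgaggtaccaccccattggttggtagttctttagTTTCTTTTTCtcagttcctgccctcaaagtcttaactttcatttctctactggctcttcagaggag
Trim30d chr7:104507820-104507949, minus strand: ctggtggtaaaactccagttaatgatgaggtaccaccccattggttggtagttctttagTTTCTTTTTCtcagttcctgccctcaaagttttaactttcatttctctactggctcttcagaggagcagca
Trim12a chr7:104315466-104315595, minus strand: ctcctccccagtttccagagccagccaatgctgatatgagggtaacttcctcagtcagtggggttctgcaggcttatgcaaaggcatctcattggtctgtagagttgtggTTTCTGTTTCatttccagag
Trim5 chr7:104288077-104288206, minus strand: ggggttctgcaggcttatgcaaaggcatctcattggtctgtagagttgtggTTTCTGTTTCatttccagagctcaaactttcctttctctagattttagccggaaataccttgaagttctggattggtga
Trim30c chr7:104400749-104400878, minus strand: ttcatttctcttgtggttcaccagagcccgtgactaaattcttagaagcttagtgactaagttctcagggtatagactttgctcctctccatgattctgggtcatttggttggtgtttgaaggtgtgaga
Trim30a and Trim30d, which rose together, carried the same letters around their match. So did Trim12a and Trim5, of which Trim12a rose with ACs in SjSS and Trim5 did not pass the test. Trim30c had the largest change and no match in its stretch. Upstream of that stretch its window read ttcctttttc where Trim30a read TTTCTTTTTC, with tcagttcc next in both. This near match was not counted by the search.

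Among 15 regulators of nucleic acid sensing and NF-kB, 13 were tested, and the AC response was mixed. In SjSS 5 rose and 5 fell, where 28.6% and 29.4% of all genes did, and the median was -0.08. Called were 2 higher and 1 lower, against 7.09% and 5.83% of all genes. In B6 3 rose and 1 fell, against 20% and 18.3% of all genes, with a median of 0.12. Trim25 (chr11:88999376-89020293, plus strand), which encodes the RIG-I ligase, was at 183, 235 and 224 CPM in control and 341, 328 and 343 CPM in AC treated B6 BMDMs. In SjSS it was at 209, 222 and 186 CPM in controls and 953, 886 and 953 CPM with ACs. The strains overlapped without ACs and were separate with them. It rose by 2.18 ± 0.10, adjusted p = 1.16e-12, in SjSS and by 0.66 ± 0.10, adjusted p = 3.51e-05, in B6, and the interaction was 1.52 ± 0.14, adjusted p = 8.71e-08.

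Trim26 (chr17:36837134-36859398, plus strand), whose product acts on IRF3 and TBK1, was at 63.7, 66.2 and 67.6 CPM in control and 72.2, 73.4 and 75.1 CPM in AC treated B6 BMDMs. The SjSS samples went from 58.9, 63.8 and 61.7 to 166, 159 and 170.1 CPM. The change was 1.43 ± 0.07, adjusted p = 1.40e-12, in SjSS and 0.16 ± 0.07, adjusted p = 0.0732, in B6, and the interaction 1.27 ± 0.10, adjusted p = 6.49e-09. Trim14 (chr4:46493781-46536141, minus strand) encodes an adaptor at MAVS. It was at 27.5, 25.9 and 30.2 CPM in control and 32.0, 31.3 and 27.4 CPM in AC treated B6 BMDMs, which overlapped (0.12 ± 0.12, adjusted p = 0.502). In SjSS it went from 38.1, 36.9 and 46.8 to 90.9, 89.7 and 94.4 CPM (1.17 ± 0.12, adjusted p = 9.14e-08), and the interaction was 1.06 ± 0.17, adjusted p = 7.65e-05. Exons of Trim14 and of Nans overlap on opposite strands over 1356 bases, and whether counting used strand was not stated in the sources used here. Nans itself changed by -0.38 ± 0.08 with ACs in SjSS (adjusted p = 2.38e-04).

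Trim56 (chr5:137105644-137116209, minus strand), which acts with the DNA sensor adaptor STING, was at 72.3, 75.6 and 73.0 CPM in control and 83.3, 83.9 and 81.5 CPM in AC treated B6 BMDMs. In SjSS it went from 71.0, 72.9 and 67.3 to 153, 132 and 165.1 CPM. It rose in SjSS (1.09 ± 0.07, adjusted p = 2.47e-10) and did not pass in B6 (0.17 ± 0.07, adjusted p = 0.0765), with an interaction of 0.92 ± 0.10, adjusted p = 1.20e-06. Trim13 (chr14:61598226-61605946, plus strand), a ubiquitin ligase anchored in the endoplasmic reticulum, rose in both strains. It was at 8.26, 7.28 and 7.41 CPM in control B6, 14.0, 15.04 and 15.2 CPM in AC treated B6, 5.56, 6.39 and 4.93 CPM in control SjSS and 10.7, 9.93 and 12.9 CPM in AC treated SjSS BMDMs. AC samples lay above controls in each strain. The rise was 1.00 ± 0.11, adjusted p = 1.33e-07, in SjSS and 0.94 ± 0.10, adjusted p = 5.50e-07, in B6, and the interaction 0.06 ± 0.15, adjusted p = 0.803, did not pass.

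Of the TRIM genes that fell, Trim65 and Trim16 passed the fold threshold in SjSS. Trim65 (chr11:116121846-116131128, minus strand) encodes a ligase that activates the RNA sensor MDA5. It was at 18.5, 21.7 and 20.8 CPM in control and 18.2, 20.2 and 19.4 CPM in AC treated B6 BMDMs, and these overlapped. In SjSS it went from 23.6, 24.5 and 26.3 down to 9.38, 9.40 and 8.32 CPM, the lowest values of the 18 samples. The change was -1.46 ± 0.09, adjusted p = 4.58e-11, in SjSS and -0.08 ± 0.08, adjusted p = 0.505, in B6, with an interaction of -1.38 ± 0.12, adjusted p = 4.47e-08. Trim47, which shares 225 exon bases with Trim65 on the same strand, fell in both strains (-1.12 and -0.38). Trim16 (chr11:62820231-62850808, plus strand) was at 6.36, 5.11 and 5.01 CPM in control and 5.68, 5.24 and 4.46 CPM in AC treated B6 BMDMs. SjSS values were 7.11, 7.75 and 7.41 CPM in controls and 2.02, 3.26 and 2.09 CPM with ACs. It fell in SjSS (-1.59 ± 0.19, adjusted p = 6.58e-07) and overlapped in B6 (-0.10 ± 0.18, adjusted p = 0.707), with an interaction of -1.49 ± 0.26, adjusted p = 1.62e-04. Trim16 shares 237 exon bases with Fbxw10, which changed by -1.40 ± 0.29 with ACs in SjSS (adjusted p = 3.56e-04).

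Trim8 (chr19:46501648-46516444, plus strand), which acts on TAK1 in NF-kB signaling, stayed short of the fold threshold. It was at 146, 131 and 148 CPM in control and 125, 131 and 125 CPM in AC treated B6 BMDMs, and at 127, 134 and 132 CPM and 63.7, 67.5 and 72.1 CPM in SjSS. The fall was -0.95 ± 0.06, adjusted p = 3.22e-11, in SjSS and -0.16 ± 0.06, adjusted p = 0.029, in B6, and the interaction was -0.79 ± 0.08, adjusted p = 2.28e-07. Trim27 (chr13:21179445-21194724, plus strand), a repressor of IKK signaling, moved in opposite directions. It was at 43.1, 39.3 and 43.6 CPM in control and 48.9, 49.8 and 47.8 CPM in AC treated B6 BMDMs, and rose there (0.22 ± 0.06, adjusted p = 0.00634). In SjSS it went from 42.4, 41.0 and 41.4 to 36.4, 34.5 and 38.1 CPM and fell (-0.20 ± 0.06, adjusted p = 0.0085), with an interaction of -0.41 ± 0.08, adjusted p = 6.78e-04. Trim32 (chr4:65604986-65616238, plus strand) was at 17.3, 17.9 and 18.6 CPM in control and 18.2, 15.7 and 17.8 CPM in AC treated B6 BMDMs, and at 19.0, 17.7 and 21.7 CPM and 13.9, 14.8 and 14.2 CPM in SjSS, where it fell (-0.45 ± 0.09, adjusted p = 2.37e-04).

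The strain by AC interaction was called for 9 TRIM genes with a higher and 4 with a lower response in SjSS, against 4.76% and 2.77% of all genes tested. At an adjusted p below 0.05 alone the counts were 13 and 13, against 19.6% and 18.3%. With library totals alone they were 5 and 5. Besides Trim65 and Trim16, Trim45 and Trim7 had the lower response. Trim45 (chr3:100922202-100936920, plus strand) was at 1.46, 1.79 and 1.72 CPM in control B6, 2.01, 2.44 and 2.14 CPM in AC treated B6, 4.02, 2.69 and 3.88 CPM in control SjSS and 1.68, 1.77 and 2.24 CPM in AC treated SjSS BMDMs. SjSS controls were above B6 controls (1.10 ± 0.18, adjusted p = 2.34e-04), and the AC treated samples of the strains overlapped. The interaction of Trim45, -1.31 ± 0.25, adjusted p = 4.44e-04, was past the fold threshold by little and fell to between -1.26 and -1.21 without control B6 1, control SjSS 1 or 3, AC treated B6 2 or AC treated SjSS 1 or 2. Trim7 (chr11:48826140-48852209, plus strand), with 10 to 40 counts per sample, was at 0.272, 0.480 and 0.480 CPM in control B6, 0.794, 0.757 and 0.802 CPM in AC treated B6, 0.626, 0.592 and 0.725 CPM in control SjSS and 0.258, 0.463 and 0.606 CPM in AC treated SjSS BMDMs. It rose with ACs in B6 (0.94 ± 0.32, adjusted p = 0.0272) and overlapped in SjSS (-0.54 ± 0.33, adjusted p = 0.175), with an interaction of -1.48 ± 0.46, adjusted p = 0.0167. Without control B6 1 it was -1.25, and without AC treated SjSS 1 it was -1.23.

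**Figure D3:**
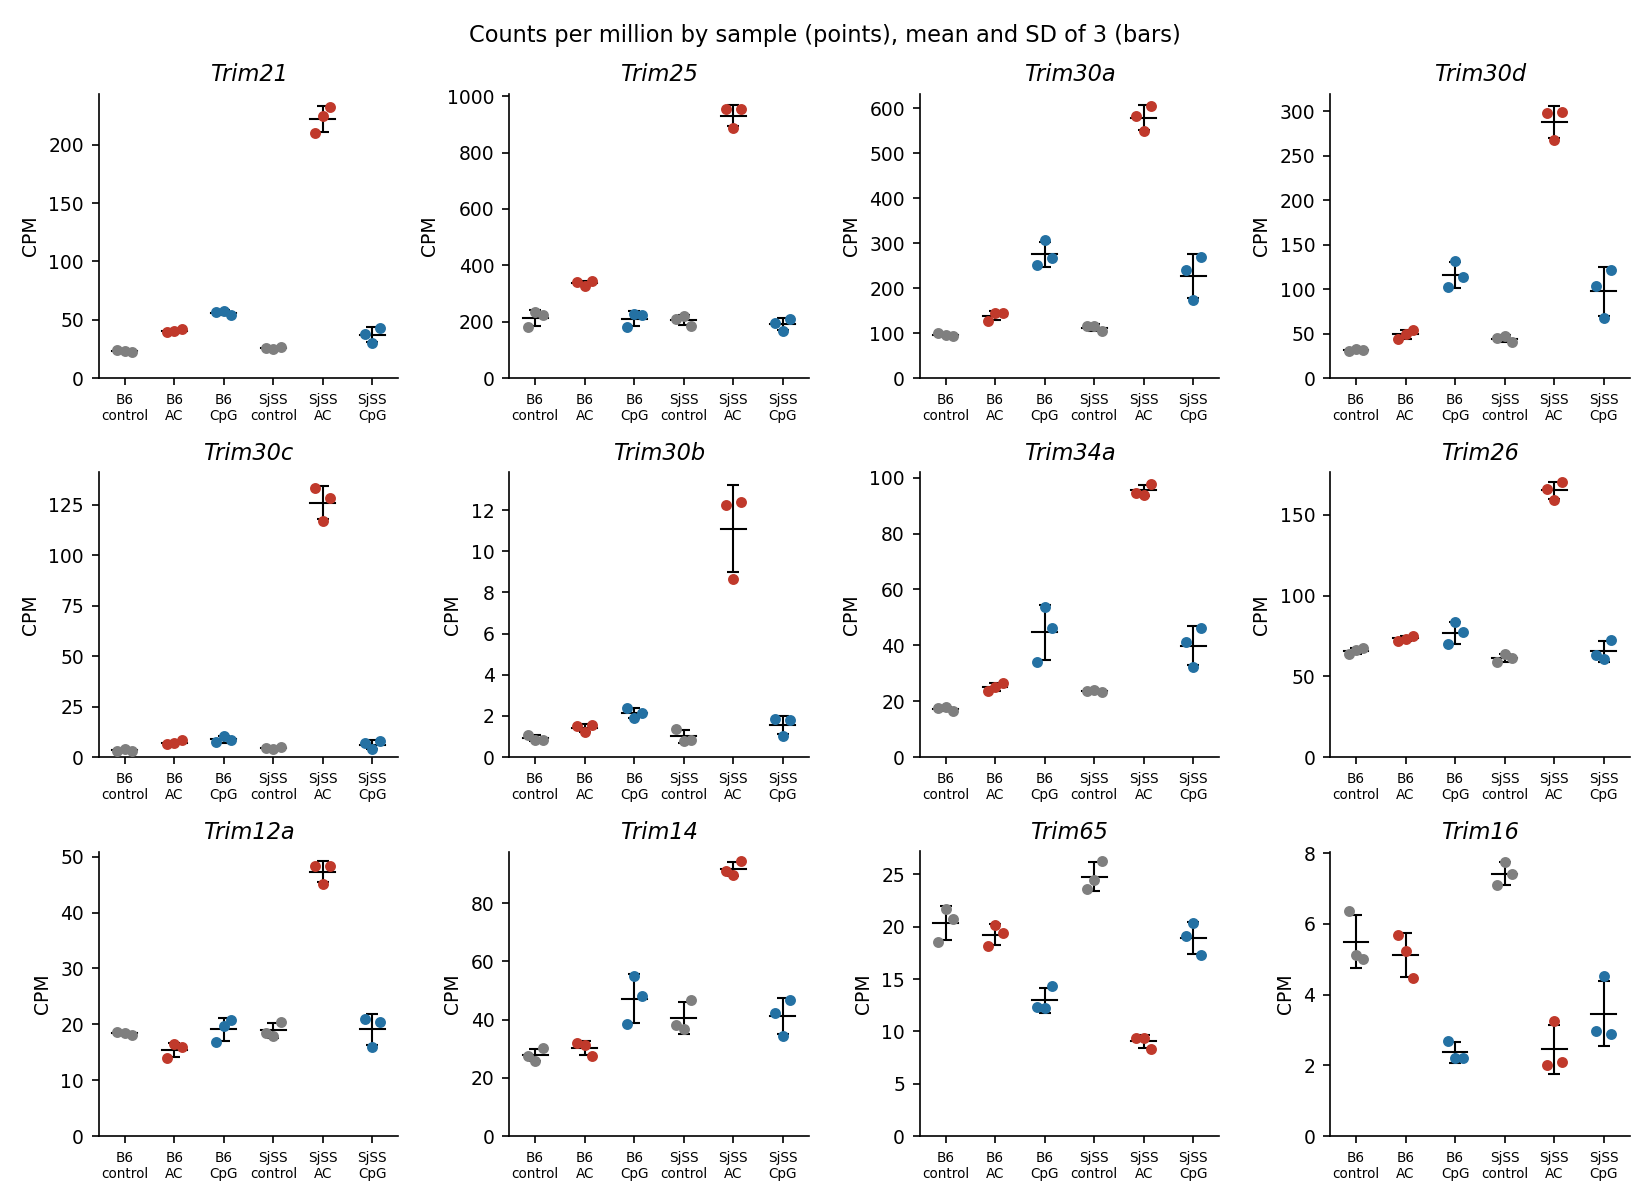
CPM of 12 TRIM genes by sample (points, linear axes from 0) with the mean and SD of 3 samples (bars) in control, AC and CpG treated BMDMs of B6 and SjSS. For the first 10 genes the AC treated SjSS points lie above all others (Trim21 between 210.2 and 232 CPM), for Trim65 they lie below all others, and for Trim16 they overlap with CpG treated samples.

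With ACs present, the strains themselves differed in 11 TRIM genes called higher and 0 lower in SjSS, against 6.24% and 2.69% of all genes tested. At an unadjusted p under 0.05 edgeR gave 15 higher and 19 lower, and DESeq2 called 11 and 0. With library totals alone 8 were called higher and 3 lower. Without the fold threshold 14 were higher and 18 lower (24% and 25.5% of all genes). The log2 differences of the called genes were 4.13 for Trim30c, 2.95 for Trim30b, 2.56 for Trim30d, 2.46 for Trim21, 2.06 for Trim30a and 1.93 for Trim34a. They were 1.76 for Trim34b, 1.62 for Trim12a, 1.60 for Trim14, 1.46 for Trim25 and 1.35 for Trim12c. AC treated SjSS samples lay above AC treated B6 samples for each of these but Trim34b, whose groups overlapped and whose adjusted p of 0.0234 rose to between 0.0534 and 0.0984 without AC treated B6 2 or 3 or AC treated SjSS 1 or 3.

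In control BMDMs fewer TRIM genes were called between the strains. Trim34b was called higher in SjSS (2.08 ± 0.65, adjusted p = 0.0305) and no TRIM gene was called lower, against 1.3% and 0.716% of all genes, and at an unadjusted p under 0.05 edgeR gave 13 higher and 8 lower. DESeq2 called 1 higher and 0 lower. Trim34b had a mean of 0.0824 ± 0.0551 CPM in B6 and 0.339 ± 0.106 CPM in SjSS (± SD, n = 3), and without control B6 1 or 3 or control SjSS 1 or 3 its adjusted p was between 0.0558 and 0.118. With Trim34a and Trim34b added up the difference was 0.46 ± 0.13 (adjusted p = 0.016), under the fold threshold. Without the fold threshold 8 TRIM genes were higher and 5 lower (9.04% and 10.6% of all genes). Higher in SjSS were Trim45 (1.10), Trim14 (0.54), Trim30d (0.48), Trim34a (0.45), Trim65 (0.29), Trim3 (0.23) and Trim28 (0.18) besides Trim34b. Lower were Trim68 (-0.46), Trim13 (-0.45), Trim5 (-0.41), Trim24 (-0.28) and Trim33 (-0.20). Trim45, Trim33, Trim2, Trim46 and Trim59 lie on chromosome 3 between 30 and 110 Mb, a window chosen with earlier results of these data known. The sources used here give no bounds for the NOD intervals, so whether these genes lie in NOD DNA was not tested. No TRIM gene lay in the windows on chromosome 1, which were chosen likewise.

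With CpG the called TRIM genes were Trim30d, Trim30a, Trim13, Trim34a and Trim30c, all higher in B6. In B6 5 were called higher and 0 lower (5.86% and 6.88% of all genes), with 20 higher and 12 lower at an unadjusted p under 0.05 by edgeR and 6 and 0 called by DESeq2. With library totals alone, which put the median of all genes at -0.22 against -0.04 with TMM, 2 were called higher and 1 lower. In SjSS 0 were called in either direction (4.81% and 4.45% of all genes), with 15 higher and 12 lower at an unadjusted p under 0.05 and 0 called by DESeq2. Without the fold threshold 19 rose and 11 fell in B6 (28.1% and 29.8% of all genes), and 13 rose and 10 fell in SjSS (27.8% and 26.4%). These counts do not test a difference between the strains, which the interaction below does.

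Trim30d was at 103, 131 and 113 CPM in CpG treated B6 and 104, 67.7 and 122 CPM in CpG treated SjSS BMDMs. All lay above their controls. It rose by 1.88 ± 0.15, adjusted p = 2.14e-09, in B6 and 1.15 ± 0.15, adjusted p = 1.74e-06, in SjSS. Trim30a was at 252, 306 and 267 CPM in B6 and 241, 174 and 269 CPM in SjSS, and rose in both (1.51 ± 0.11, adjusted p = 1.22e-09, in B6 and 1.02 ± 0.11, adjusted p = 3.11e-07, in SjSS). Trim30c was at 7.22, 10.5 and 8.67 CPM in B6 and 6.72, 3.78 and 8.15 CPM in SjSS, where it overlapped with controls. Its change was 1.36 ± 0.20, adjusted p = 6.91e-06, in B6 and 0.47 ± 0.20, adjusted p = 0.0546, in SjSS, and without control B6 1 or CpG treated B6 2 the B6 value was 1.29 or 1.22. Trim34a was at 34.1, 53.7 and 46.2 CPM in B6 and 41.0, 32.3 and 46.1 CPM in SjSS, with changes of 1.37 ± 0.13, adjusted p = 2.13e-08, and 0.75 ± 0.13, adjusted p = 4.56e-05. Without CpG treated B6 2 the B6 change was 1.21, under the fold threshold. Trim13 was at 19.9, 20.6 and 19.2 CPM in B6 and 14.4, 14.0 and 12.7 CPM in SjSS. It rose in both strains (1.38 ± 0.10, adjusted p = 7.46e-10, in B6 and 1.29 ± 0.11, adjusted p = 4.46e-09, in SjSS), with an interaction of -0.09 ± 0.15, adjusted p = 0.803.

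Trim21 was at 57.0, 57.5 and 54.1 CPM in CpG treated B6 and 37.8, 30.3 and 43.3 CPM in CpG treated SjSS BMDMs, so that the strains were separate, B6 above. It rose by 1.28 ± 0.09, adjusted p = 2.89e-10, in B6 and by 0.52 ± 0.09, adjusted p = 5.12e-05, in SjSS. Trim30b was at 2.38, 1.92 and 2.15 CPM and 1.84, 1.04 and 1.78 CPM (1.24 and 0.61). Trim14 was at 38.4, 55.1 and 48.0 CPM in B6, where it rose (0.75 ± 0.12, adjusted p = 2.77e-05), and 42.2, 34.5 and 46.8 CPM in SjSS, where it overlapped with controls (0.02 ± 0.12, adjusted p = 0.912). Several genes of the AC response were near their controls with CpG. Trim25 was at 181, 228 and 223 CPM in B6 and 195, 169 and 211 CPM in SjSS, overlapping with controls in each strain (-0.02 and -0.10). Trim12a was at 16.8, 19.7 and 20.8 CPM and 20.9, 15.9 and 20.5 CPM (0.05 and 0.01). Trim12c was at 43.3, 48.9 and 49.3 CPM and 53.2, 39.6 and 47.5 CPM (0.13 and 0.10). Trim26 was at 69.8, 83.7 and 77.3 CPM, a rise of 0.22 in B6, and 63.0, 60.8 and 72.7 CPM (0.09) in SjSS. None of Trim25, Trim12a and Trim12c passed the test with CpG in either strain.

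Trim56 rose with CpG to 90.9, 106 and 99.9 CPM in B6 (0.43 ± 0.07, adjusted p = 5.83e-05) and 81.3, 80.5 and 91.6 CPM in SjSS (0.26 ± 0.07, adjusted p = 0.00557). Trim27 rose as well, to 52.8, 50.01 and 45.9 CPM and 48.6, 49.3 and 51.9 CPM (0.24 and 0.26). These rises were small beside that of Trim13. Trim16 fell with CpG to 2.70, 2.21 and 2.19 CPM in B6 (-1.21 ± 0.19, adjusted p = 1.92e-05) and 2.97, 4.52 and 2.90 CPM in SjSS (-1.10 ± 0.18, adjusted p = 4.60e-05). Trim65 fell to 12.4, 12.2 and 14.3 CPM in B6 (-0.65) and 19.1, 20.4 and 17.3 CPM in SjSS (-0.39). Trim8 did not pass in either strain, at 143, 139.9 and 133 CPM in B6 and 125, 129.8 and 133 CPM in SjSS. Trim32, at 14.8, 16.7 and 15.5 CPM in B6 and 14.2, 17.5 and 15.8 CPM in SjSS, fell in SjSS (-0.30). Trim45 was at 2.46, 3.22 and 2.76 CPM in B6, a rise of 0.76, and 3.64, 2.89 and 3.47 CPM in SjSS. Trim7 was at 0.544, 0.320 and 0.652 CPM and 0.720, 0.717 and 0.571 CPM, and Trim34b at 0.141, 0.293 and 0.261 CPM and 0.292, 0.124 and 0.183 CPM, and neither passed. With same-numbered samples of a strain as a block, a fit added after seeing the data, Trim34b was called higher with CpG in B6 (1.54 ± 0.63, adjusted p = 0.044).

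The strain by CpG interaction called 0 TRIM genes in either direction, against 0.285% and 0.329% of all genes. At an unadjusted p under 0.05 edgeR gave 5 with a higher and 10 with a lower response in SjSS, and DESeq2 called 0. Without the fold threshold, 2 had a higher and 5 a lower response (3.23% and 2.62% of all genes). The lower ones were Trim45 (-0.85 ± 0.25, adjusted p = 0.0495), Trim21 (-0.76 ± 0.12, adjusted p = 0.00125), Trim14 (-0.74 ± 0.17, adjusted p = 0.0153), Trim30d (-0.73 ± 0.20, adjusted p = 0.0414) and Trim34a (-0.61 ± 0.18, adjusted p = 0.0484). Trim2 (1.03 ± 0.25, adjusted p = 0.0201) and Trim33 (0.35 ± 0.09, adjusted p = 0.0376) had the higher response, and both lie in the chromosome 3 window. Trim2 was at 3.79, 2.71 and 2.50 CPM in control and 1.87, 1.81 and 2.43 CPM in CpG treated B6 BMDMs, and at 2.52, 2.40 and 2.79 CPM and 3.15, 3.51 and 4.07 CPM in SjSS, so it fell in B6 and rose in SjSS. In CpG treated BMDMs the strains differed in 0 called TRIM genes (1.82% and 0.792% of all genes were called higher and lower), with 7 higher and 11 lower at an unadjusted p under 0.05 by edgeR, 3 and 7 after adjustment (10.2% and 9.57% of all genes), and 0 called by DESeq2.

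**Figure D4:**
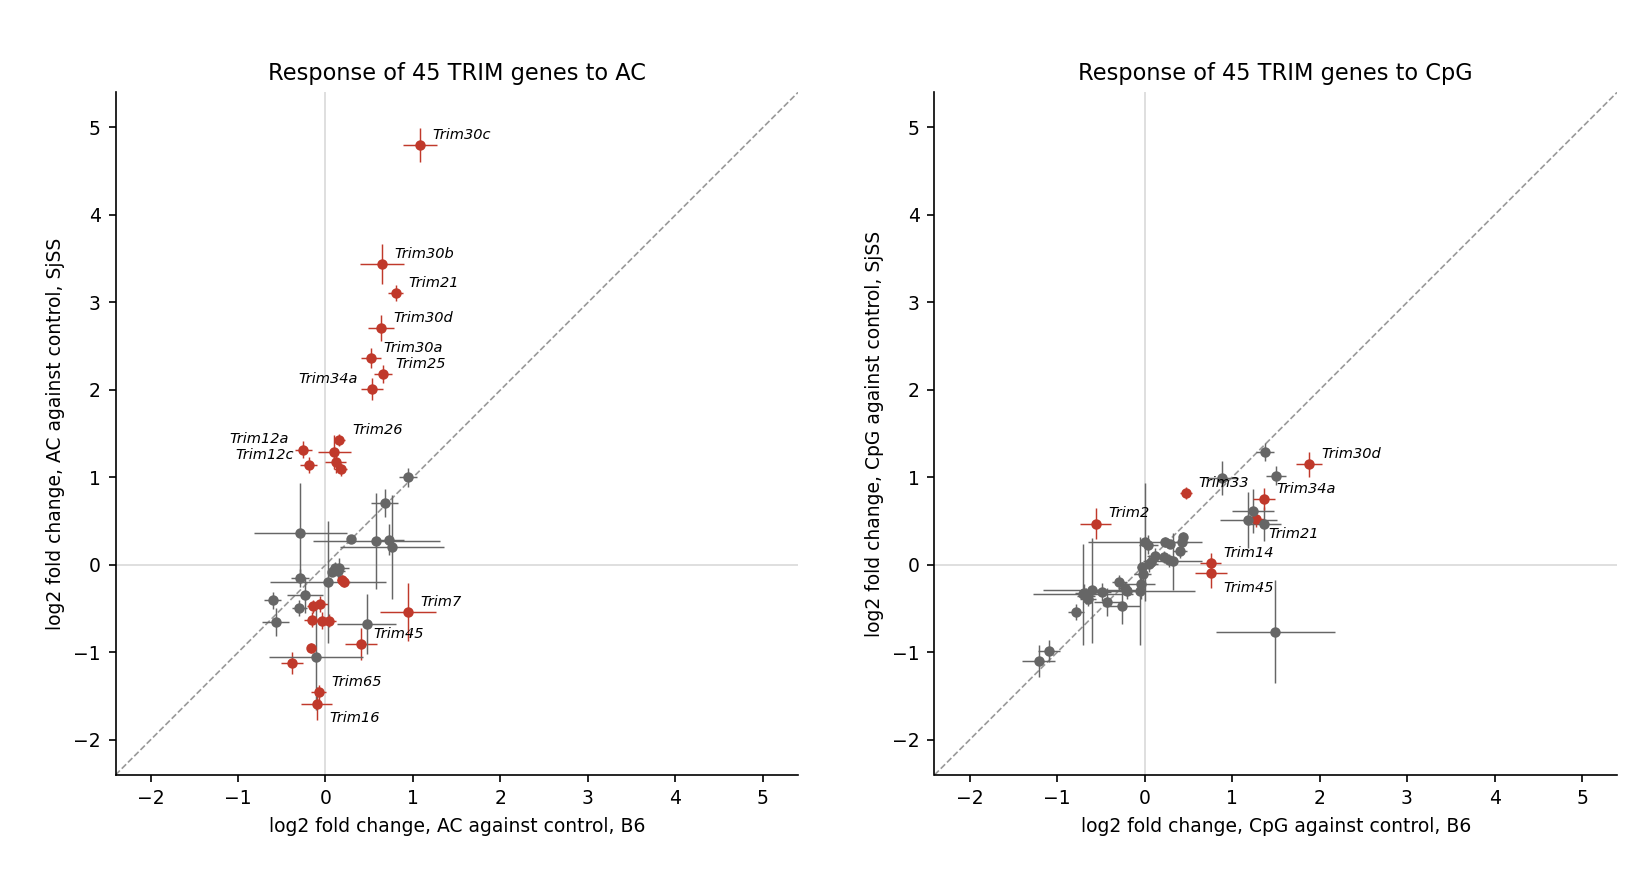
Log2 fold change in SjSS against that in B6 (± SE) for 45 TRIM genes with ACs (left) and CpG (right), each against control, with equal axes and a dashed line of equal response. Red points have a strain by treatment interaction at an adjusted p under 0.05, and the 9 with an AC interaction over 1.3 lie far above the line, while with CpG the interactions of the red points run from -0.85 to 1.03.

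The TIF1 co-repressors, nuclear proteins that silence chromatin, were called in no comparison. Trim28, the co-repressor of KRAB zinc finger proteins, was at 106, 98.1 and 107 CPM in control, 123, 118 and 114 CPM in AC treated and 111, 109 and 107 CPM in CpG treated B6 BMDMs. In SjSS the values were 110.3, 116 and 127, then 102, 107 and 104, and 115, 120.4 and 126 CPM. It rose with ACs in B6 (0.19 ± 0.06, adjusted p = 0.011) and fell in SjSS (-0.17 ± 0.06, adjusted p = 0.014). Trim24 was at 17.6, 15.2 and 14.3 CPM in control, 10.2, 10.03 and 10.8 CPM in AC treated and 8.87, 10.4 and 9.91 CPM in CpG treated B6 BMDMs. The SjSS values were 12.7, 12.5 and 13.6, then 9.38, 9.57 and 10.4, and 11.9, 9.69 and 9.52 CPM. It fell with both treatments in both strains, most with CpG in B6 (-0.69 ± 0.10, adjusted p = 5.17e-06). Trim33, a partner of SMAD4, was at 46.1, 45.7 and 43.7 CPM in control, 48.6, 48.6 and 49.4 CPM in AC treated and 67.3, 58.8 and 61.7 CPM in CpG treated B6 BMDMs. SjSS samples were at 41.6, 41.4 and 35.2, then 39.9, 35.8 and 39.1, and 72.4, 66.7 and 68.8 CPM. It rose with CpG (0.47 ± 0.07, adjusted p = 5.79e-06, in B6 and 0.82 ± 0.07, adjusted p = 5.51e-09, in SjSS) and passed with ACs in neither strain. Trim66, the 4th co-repressor listed, had 3 to 37 counts per sample and passed in no treatment.

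Of 3 tested NHL proteins (Trim2, Trim3, Trim32), none was called with ACs or CpG. Of 3 tested microtubule-associated proteins with a COS domain, Trim36 rose with ACs in SjSS to just under the fold threshold (1.29 ± 0.19, adjusted p = 1.18e-05) and was called by DESeq2. Among TRIM genes outside these lists, besides Trim16 and Trim45, Trim47 (-1.12), Trim62 (-0.64), Trim39 (-0.62), Trim37 (-0.50) and Trim11 (-0.47) fell with ACs in SjSS. TRIM proteins with another symbol share some of the domains but not the name. Of these 5 (Pml, Mefv, Mid1, Mid2, Cmya5), 3 were called higher with ACs in SjSS, where 7.09% of all genes were. Pml, of nuclear bodies, was at 53.8 ± 3.77 CPM in control and 228 ± 14.0 CPM in AC treated SjSS BMDMs (SD, n = 3), and at 50.5 ± 3.10 and 52.9 ± 2.29 CPM in B6. Its interaction was 2.01 ± 0.17, adjusted p = 1.83e-08. Mefv, which encodes pyrin, rose in both strains (3.28 and 2.37), and Mid1 rose in SjSS (3.03 ± 0.24, adjusted p = 2.05e-09) and did not pass in B6 (-0.03 ± 0.22, adjusted p = 0.932), with an interaction of 3.07 ± 0.33, adjusted p = 5.01e-07.

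The genes on which TRIM proteins act were read from a fixed list of 23, all tested. With ACs in SjSS 17 rose and 4 fell, 11 called higher, with a median of 1.07. In B6 14 rose and 4 fell, 4 called higher, with a median of 0.66. Of all genes, 28.6% rose, 29.4% fell and 7.09% were called higher in SjSS. In B6 20% of all genes rose, 18.3% fell and 2.43% were called higher. Among the sensors, Ifih1 (MDA5) rose by 4.64 ± 0.14, adjusted p = 2.44e-15, in SjSS, with an interaction of 3.34 ± 0.18, adjusted p = 8.91e-11, and Ddx58 (RIG-I), the target of TRIM25, rose by 3.20 ± 0.16, adjusted p = 1.75e-12, in SjSS and 0.91 ± 0.15, adjusted p = 7.13e-05, in B6. Isg15, a ubiquitin-like protein, had 2078 counts over the 3 control and 90185 over the 3 AC treated SjSS samples, and 1403 and 9459 in B6, with changes of 5.53 ± 0.23, adjusted p = 1.41e-13, and 2.93 ± 0.21, adjusted p = 3.49e-09. Stat2, a transcription factor of interferon signaling, rose by 2.78 in SjSS and by 1.01 in B6. Ifnb1 had 15 counts over the 3 control and 694 over the 3 AC treated SjSS samples, and 5 and 26 in B6, and its interaction did not pass (3.17 ± 1.304, adjusted p = 0.064). The adaptors Mavs (-0.56 ± 0.05, adjusted p = 5.53e-09) and Tmem173, or STING (-0.37 ± 0.08, adjusted p = 8.98e-04), fell in SjSS. With CpG, 8 of the 23 were called higher in B6 and 3 in SjSS, where 5.86% and 4.81% of all genes were.

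The 9 TRIM genes under the filter were Trim15, Trim38, Trim43a, Trim43b, Trim43c, Trim55, Trim69, Trim72 and Trim75, with at most 21 counts in any sample. Trim38, a regulator of TAB2, had 0 to 8 counts per sample, at 0, 0.0209 and 0.0533 CPM in control, 0, 0.0189 and 0 CPM in AC treated and 0, 0 and 0 CPM in CpG treated B6 BMDMs. In SjSS it was at 0.0737, 0.0887 and 0.0363, then 0.0258, 0.105 and 0.179, and 0.0225, 0 and 0.0457 CPM. No counts in CpG treated B6 samples allow a ratio to control of up to 1.90 by the exact 95% interval, which covers counting error only. With ACs it had 1 count over the B6 and 14 over the SjSS samples, and with no filter on low counts the strain difference was called.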

How the data were processed

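RNA-seq of 18 BMDM samples was deposited as 1 gene table. The authors aligned reads to mm10 with STAR in Partek Flow and quantified genes by Partek's E/M method, which gave the deposited estimated counts (41.1% not whole at a tolerance of 1e-06). STAR and Partek versions and the annotation release were not given in the sources used here, and the labels name DESeq2 3.13. Estimated counts were rounded. Groups were taken from the sample labels. Totals were 30688288 to 57139640 counts per sample (median 47912516). Low counts limit the rarer genes, and intervals cover counting error only.

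In R 4.3.3, genes were filtered with filterByExpr of edgeR 4.0.16, scaled by TMM, and fitted with the quasi-likelihood model to 6 group means over all 18 samples, with Benjamini-Hochberg adjustment over 15789 genes. The interaction is the SjSS response minus the B6 response. The test was checked on simulated counts. The members, chromosome windows and gene lists were chosen with earlier results of these data known. Genes named with sample values were those called in any comparison, the 3 highest per kilobase, the TIF1 genes Trim24, Trim28 and Trim33, and regulators of sensing. Trim2, Trim5, Trim6 and others outside this rule were named after their values were seen.

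Alternatives were DESeq2 1.42.0, its size factors in edgeR, library totals alone, other filters, the compared groups alone, no fold threshold, summed copies, a replicate block and leaving out each sample. Same-numbered samples were compared by the correlation of their deviations from group means, which ran from -0.094 to 0.264 (median 0.008) over all groups and from 0.02 to 0.264 within strains, where all 18 pairs were above 0, and 16 samples matched their own number best. Every pair was over 0.1 only for control and CpG treated B6 samples (0.26, 0.264 and 0.137). The main fit used no block, so p-values for every response, CpG in B6 included, leave out any such pairing. Blocked values are given where a call changed. No 2 samples of a group agreed within sampling noise. Deposited coordinates are mm10, with the end given 1 base before the deposited stop. Exon lengths and overlaps used GENCODE M21, and promoter windows came from RefSeq (GRCm38.p6).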

Additional observations from a re-analysis of the deposited data

Results flagged for a closer look

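Among TRIM genes, 13 had an AC response that differed between the strains past both thresholds of edgeR's interaction test. Of all genes tested, 4.76% were called with a higher and 2.77% with a lower response in SjSS. With library totals alone, Trim12a, Trim12c, Trim25 (1.18) and Trim34a (1.14) were no longer called, and Trim46 was called. By DESeq2, Trim45 (-1.294) was under the fold threshold. The response was higher in SjSS, on the log2 scale, for Trim30c (3.72), Trim30b (2.79), Trim21 (2.30), Trim30d (2.07), Trim30a (1.85), Trim12a (1.57), Trim25 (1.52), Trim34a (1.48) and Trim12c (1.33). It was lower for Trim45 (-1.31), Trim65 (-1.38), Trim7 (-1.48) and Trim16 (-1.49).

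Among the 9 genes under the filter on low counts, 3 were picked by a rule over the AC and CpG responses of both strains. Every treated sample had to lie above every control sample, and the exact 95% interval of the ratio above 1. The intervals were part of the rule, so they are not a test. Trim43b had 9 counts in CpG treated (6, 2 and 1 per sample) and 0 in control B6 BMDMs, a ratio of at least 2.47. Trim69 had 36 counts in AC treated and 6 in control SjSS BMDMs, a ratio of 6.57 (2.74 to 19.1). Its CpG treated B6 samples also lay above controls (6 counts against 1), but that interval, 0.911 to 345, held 1. Trim75 had 8 counts in AC treated and 1 in control B6 BMDMs, a ratio of 9.01 (1.21 to 399.6). These intervals cover counting error only.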

How the results depend on the processing

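Without the fold threshold, TRIM genes higher and lower numbered 14 and 7 with ACs in B6, 16 and 15 with ACs in SjSS, 19 and 11 with CpG in B6, and 13 and 10 with CpG in SjSS. Between strains they numbered 8 and 5 in controls, 14 and 18 with ACs, and 3 and 7 with CpG. For the interactions they were 13 and 13 with ACs and 2 and 5 with CpG. The shares of all genes stand with each comparison above. With library totals alone the calls higher and lower were 7 and 6 with ACs in SjSS and 2 and 1 with CpG in B6. Between strains with ACs they were 8 and 3, and in the AC interaction 5 and 5. The medians of all genes under this scaling are given above for the AC response in SjSS and the CpG response in B6. For the strain difference with ACs and the AC interaction they were -0.35. Leaving out each sample in turn gave 8 to 10 higher and 2 to 3 lower with ACs in SjSS, 4 to 6 and 0 to 1 with CpG in B6, 0 to 1 and 0 to 1 with CpG in SjSS, 0 to 1 higher between strains in controls, 10 to 11 and 0 to 1 between strains with ACs, and 8 to 10 and 2 to 5 in the AC interaction. Without control SjSS 1 or 2, Trim12a rose with ACs in SjSS by less than the fold threshold (1.28 without control SjSS 2). No direction of a called gene turned in any alternative. The replicate block kept all 41 calls, and a block within strain, chosen after seeing the data, moved the AC interaction of Trim45 to -1.29, under the fold threshold, and added Trim34b to the CpG calls in B6 (1.54, adjusted p = 0.044). The cause of these moves was not tested.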
